A study of Mus musculus with 16 samples.

Results

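The genes described here encode the subunits of oxidative phosphorylation (OXPHOS), the 5 protein complexes of the inner mitochondrial membrane that move electrons from nutrients to oxygen and make ATP. They were chosen by gene symbol from the table of counts: the nuclear Nduf (a, b, c, s and v series), Uqcr, Cox4 to Cox8, Atp5 and Sdh genes, and the protein genes of mitochondrial DNA, without symbols that contain -ps, a mark of pseudogenes. This gave 98 of 37003 genes, of which 86 are nuclear (37 of complex I, 4 of complex II, 8 of complex III, 20 of complex IV and 17 of complex V) and 12 are mitochondrial (7, 0, 1, 3 and 1). The mitochondrial genes carry names such as ND1 in the table and were matched by Ensembl identifier, and mt-Atp8 was not analysed here. NDUFA4 and NDUFA4L2 are counted with complex IV, where NDUFA4 is now placed, and COX7A2L, a factor that joins complexes III and IV into supercomplexes, is counted there too.

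RNA came from 16 libraries of mouse brain endothelial cells (bECs), sorted as DAPI-, CD45- and CD31+ cells, with 4 libraries in each of 4 groups, CTRL sham, YT-iKO sham, CTRL MCAo and YT-iKO MCAo. MCAo is occlusion of the middle cerebral artery for 30 min, and cells were taken 72 h after it or after the sham operation, from the territory of that artery and the corresponding area of the other hemisphere. YT-iKO mice carried floxed alleles of Yap and of Wwtr1, which encodes TAZ, and Pdgfb-iCreERT2, written Pdgfb-iCreER-eGFP in the study's methods, an endothelial transgene for a Cre recombinase that tamoxifen activates. CTRL littermates carried the floxed alleles without that transgene, and both genotypes received tamoxifen as adults. Mice of both sexes were used, several were pooled for each library, and the pool is the replicate. The sexes and ages within each pool are not used here, and in such bulk samples fewer cells of a type and less RNA per cell cannot be told apart.

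Complex I takes electrons from NADH and complex II, which is also an enzyme of the citric acid cycle, takes them from succinate. Complex III passes them to cytochrome c, complex IV hands them to oxygen, and complex V uses the proton gradient that results to make ATP. Complexes I, III, IV and V are built from proteins of 2 genomes, whereas all subunits of complex II are nuclear, so the RNAs of both genomes are described apart. Brain endothelium transports solutes at an energy cost and is known to be rich in mitochondria compared with endothelium elsewhere.

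Libraries held 11418262 to 23074547 counts. No libraries of a group were copies of each other: their counts differed by at least 5.54 times the variance of counting (chi-square per degree of freedom). Levels are given as counts relative to library size (CPM), scaled by edgeR's TMM factors. The test used factors from all 31085 genes tested, and a second scale, here called the abundant-gene scale, took them from the 9132 genes whose mean level reached 10 CPM. CPM of single libraries are on the abundant-gene scale throughout. The reason is in the libraries: the all-gene factors ran from 0.743 to 1.40 and the abundant-gene factors from 0.939 to 1.04. The sum of the nuclear OXPHOS genes had a coefficient of variation over the 16 libraries of 21.7% on the all-gene scale and of 8.85% on the abundant-gene scale. Of these nuclear genes, 65 are among the 9132 that set the abundant-gene factors. A smaller spread on that scale is therefore partly built in and is no separate support for it. The 1464 autosomal olfactory, vomeronasal and taste receptor genes, which bECs do not use, held 0.0198 to 0.564 CPM per kb of exon. The 5 libraries with the highest such background also had the 5 highest all-gene factors (YT-iKO MCAo replicates 2 and 3, YT-iKO sham replicate 3, and CTRL MCAo replicates 2 and 3). The 10 endothelial markers summed to 14960 to 20866 CPM, with lower sums in YT-iKO and no overlap: 19308 to 20540 in CTRL and 16190 to 18867 in YT-iKO after sham, and 18416 to 20866 and 14960 to 18286 after MCAo. The targeted genes had lower levels in the libraries labelled YT-iKO, with a log2 fold change after sham of −1.18 for Yap1 and −1.88 for Wwtr1 (edgeR adjusted p = 0.0371 and 0.00381).

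The sequences of the mitochondrial genes set what their counts can show. Nuclear DNA holds copies of mitochondrial DNA, and a read that lies wholly in an identical stretch has more than 1 place in the genome. A long copy of this kind lies on chromosome 1 (GRCm38) and is annotated as a row of pseudogenes. The first bases of mt-Co3, over 1 read length, which encodes the third core subunit of complex IV (chrM:8607-8707, plus strand), are the same letters as those of the pseudogene Gm28437 (chr1:24613871-24613971, minus strand), and are shown to make this visible.
mt-Co3: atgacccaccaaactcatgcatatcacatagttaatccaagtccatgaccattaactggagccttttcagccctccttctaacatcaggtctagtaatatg
Gm28437: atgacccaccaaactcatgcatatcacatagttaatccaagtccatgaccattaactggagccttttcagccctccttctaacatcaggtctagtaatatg
All but 1 of the read-length windows in mt-Co3 (683 of 684) occur in that pseudogene. mt-Co1, the catalytic core of complex IV, is matched in part. It differs at 3 bases from Gm13340 on chromosome 2 (chr2:22589547-22589647, minus strand) over its own first read length (chrM:5328-5428, plus strand). The capitals mark those bases.
mt-Co1: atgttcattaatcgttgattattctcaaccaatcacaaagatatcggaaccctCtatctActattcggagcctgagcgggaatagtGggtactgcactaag
Gm13340: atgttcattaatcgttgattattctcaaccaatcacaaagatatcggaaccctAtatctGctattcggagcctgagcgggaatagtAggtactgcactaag
Of the 1445 windows of mt-Co1, 77 occur in Gm13340 and 379 in Gm29216 (chr1:24615706-24616197), which belongs to the long copy on chromosome 1, and 30.7% occur in some other gene.

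Counts of the mitochondrial genes fell into 2 sets that follow these copies. mt-Co1 had 440655 counts over the 16 libraries, mt-Cytb (cytochrome b, the core of complex III) 213177, and the complex I core subunits mt-Nd5, mt-Nd1, mt-Nd4, mt-Nd2 and mt-Nd6 had 195912, 127409, 97441, 95010 and 42094. These 7 genes held 99.8% of the mitochondrial OXPHOS CPM. The share of windows found elsewhere was 0 for mt-Cytb, mt-Nd5, mt-Nd1 and mt-Nd6, 3.09% for mt-Nd2, 30.7% for mt-Co1 and 60.7% for mt-Nd4. The other 5 genes had few counts: 1123 for mt-Nd3, 766 for mt-Co2, 668 for mt-Atp6 (a proton-channel subunit of complex V), 308 for mt-Co3 and 109 for mt-Nd4l. Their shares of windows found elsewhere were 97.6%, 99.5%, 99.5%, 99.8% and 98.5%. The pseudogenes on chromosome 1 were themselves counted, with 3451 counts for Gm10925 (the copy of mt-Atp6; chr1:24613974-24614651), 1485 for Gm28661 (mt-Co2; chr1:24614885-24615565), 800 for Gm28437 (mt-Co3; chr1:24613189-24613971), 279 for Gm10222 (mt-Nd4l) and 146 for Gm28438 (mt-Nd3). How reads with several matches were counted is not stated in the sources used here, so the levels of these 5 genes are uncertain and are not read as RNA levels. Per kb, mt-Co1 had 1093 CPM and mt-Cytb 714, mt-Nd1 507 and mt-Nd4 275, against 3.89 for mt-Atp6 and 1.44 for mt-Nd4l.

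**Figure D1:**
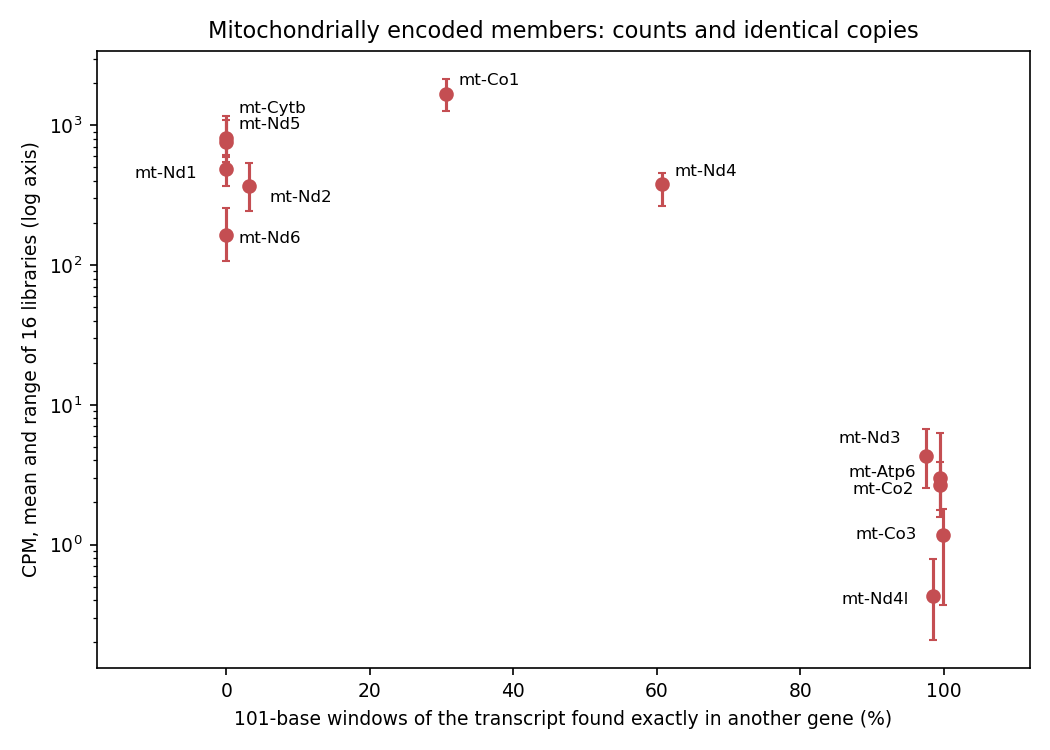
The 12 mitochondrially encoded OXPHOS genes, with the share of their read-length windows that occur exactly in another gene on the x axis (percent) and their CPM on a logarithmic y axis (points are means of 16 libraries, bars run from the lowest to the highest library). The 5 genes with 97.6% or more of their windows elsewhere lie under 10 CPM, and the other 7 lie above 100 CPM.

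Among nuclear genes, the 65 with a mean of at least 10 CPM covered every complex, 14 lay between 1 and 10 CPM and 7 under 1 CPM. For the median gene of the 65, the coefficient of variation over all libraries was 14.4% on the abundant-gene scale and 23.9% on the all-gene scale. These 65 genes are among those that set the abundant-gene factors. Of the 86 genes, 30 share exon bases with another annotated gene, which this kit cannot separate because it does not mark the strand, and 19 share some read-length window with another gene, 7 of them over 10%. Reads were not tagged by molecule, and copies made by amplification are counted.

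Only 3 nuclear genes exceeded 100 CPM. Atp5b and Atp5a1, the beta and alpha chains of the catalytic head of ATP synthase, had means of 169.8 and 164.1 CPM, and Sdha, the flavoprotein that oxidises succinate in complex II, had 138.1. The 6 highest genes held 30.5% of all nuclear OXPHOS CPM. Compared per kb of exon, Atp5a1 was highest in complex V at 52.3 CPM per kb, Cox6a1, a small subunit of complex IV, at 39.9, Sdha at 33.5, Ndufb10, an accessory subunit of complex I, at 29.5 and Uqcr11, a small subunit of complex III, at 27.5. The lowest per kb were Cox6b2 at 0.55 in complex IV, Ndufb11b at 0.64 in complex I, Atp5l at 1.68, Sdhc at 8.38 and Uqcrc2 at 12.7. Medians per complex, over genes of at least 1 CPM, lay close together: 13.2 CPM per kb for complex I (35 genes), 11.8 for II (4), 16.4 for III (8), 16.1 for IV (15) and 11.4 for V (17). The order of these medians depended on the length used, since with the length of 1 principal transcript per gene they were 24.7, 17.7, 39.3, 26.5 and 31.4.

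**Figure D2:**
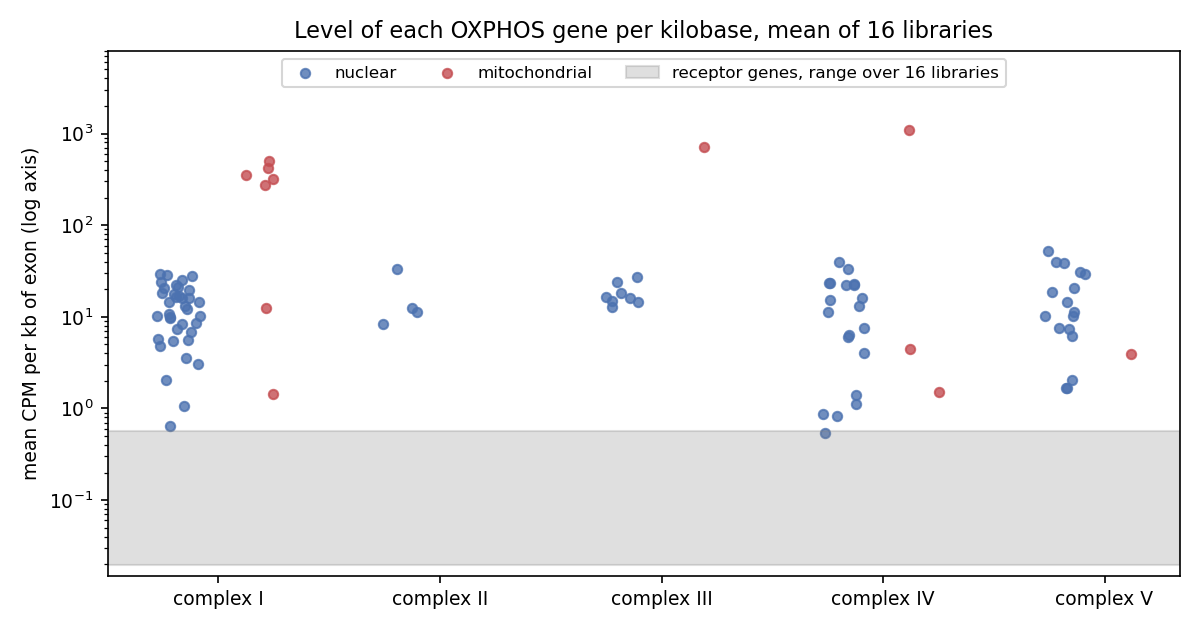
Mean level of each OXPHOS gene over 16 libraries, in CPM per kb of exon on a logarithmic axis, by complex, with nuclear genes in blue, mitochondrial genes in red and the range of the receptor-gene background over libraries as a grey band. Nuclear genes of the 5 complexes overlap in level, and 7 mitochondrial genes lie above all of them.

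The 4 subunits of complex II differed in level, with 138.1 CPM for Sdha, 27.7 for the iron-sulfur subunit Sdhb, 27.2 and 13.8 for the membrane anchors Sdhc and Sdhd. For each of the 4 subunits MCAo and sham overlapped: Sdhb, for example, had 26.3 to 29.3 CPM in CTRL after sham and 25.1 to 31.0 after MCAo, and 24.3 to 27.0 and 25.5 to 31.4 in YT-iKO. The c ring of ATP synthase, which turns as protons pass, is made from 3 genes for the same mature protein. Of these, Atp5g3 had 22.4 CPM, Atp5g2 10.4 and Atp5g1 8.3, and 34.7% of the windows of Atp5g2 occur in another gene.

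Several complex IV subunits have a general form and a form used in muscle, testis or another setting. In bECs, the muscle or testis forms Cox6a2, Cox6b2, Cox8b and Cox7b2 had means under 1 CPM. They had 2.18%, 3.72%, 1.95% and 4.29% of the CPM of Cox6a1, Cox6b1, Cox8a and Cox7b. Had receptor-gene background fallen evenly on their exons, it would have made up 28.1%, 42.3%, 20.4% and 17.4% of their counts. For Cox8c, Ndufb11b and Ndufb4c, the other genes under 1 CPM, it would have been 28.9%, 37.3% and 21.7%. Ndufb4c is annotated as a processed pseudogene and shares all its windows with Ndufb4. Together the 7 genes had 0.214 to 2.26 CPM per kb across libraries. Cox8b, Cox8c and Ndufb4c did not pass the filter on low counts, which left 83 nuclear and 12 mitochondrial genes to test.

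In the other pairs both forms were above 1 CPM. Cox7a1, the heart and muscle form of COX7A, had 1.39 to 3.29 CPM, of which an even background would have made up 5.42%, and 17.9% of the CPM of the general form Cox7a2, with overlapping groups. Cox4i2, a form of the COX4 subunit known from lung and from brain pericytes, had 15.4% of the CPM of Cox4i1 on average, with 8.32% in the lowest and 24.1% in the highest library. Ndufa4l2, which hypoxia induces in many cells and which pericytes are known to express, had 30.4% of the CPM of Ndufa4. In YT-iKO bECs this percentage was 15.6 to 26.3 after sham and 31.0 to 41.1 after MCAo, whereas in CTRL bECs it was 24.5 to 45.0 and 25.1 to 42.8. The YT-iKO groups did not overlap in this ratio, and the CTRL groups did. In CPM, the 4 YT-iKO sham libraries had 4.48, 3.13, 7.48 and 5.82 of Ndufa4l2 and the 4 YT-iKO MCAo libraries 10.8, 6.76, 6.55 and 6.76. These overlap, and Ndufa4l2 was not called (log2 fold change 0.72, standard error 0.31, edgeR adjusted p = 1; 0.57, standard error 0.28, adjusted p = 0.767 on the abundant-gene scale).

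Pericytes cling to brain capillaries, and the 10 pericyte markers, all above 1 CPM, were set beside these genes. Their sum after sham was 784 to 1018 CPM in CTRL and 641 to 919 in YT-iKO, and after MCAo it was 805 to 1444 in CTRL and 782 to 1235 in YT-iKO. The 3 libraries with the highest sums, CTRL MCAo replicates 2 (1444) and 1 (1342) and YT-iKO MCAo replicate 1 (1235), had 6.75, 5.68 and 7.98 CPM of Cox4i2 and 8.35, 8.20 and 10.8 of Ndufa4l2. High levels also occurred at lower sums, with 6.61 CPM of Cox4i2 in YT-iKO sham replicate 3 (sum 919), 6.17 in YT-iKO MCAo replicate 2 (782) and 9.11 CPM of Ndufa4l2 in CTRL sham replicate 4 (1018). After MCAo the markers had a median log2 fold change of 0.52 in CTRL and 0.46 in YT-iKO on the abundant-gene scale, and none was called. Markers of other cells were read in the same comparisons. The 6 fibroblast markers, of which Lum was under 1 CPM, had medians of 0.91 and 0.64, with Dcn called in CTRL (edgeR adjusted p = 0.0868), and summed to 18.1 to 21.9 CPM in CTRL sham and 28.6 to 45.7 in CTRL MCAo, which do not overlap, and to 18.9 to 53.8 and 22.6 to 56.9 in YT-iKO. Those of astrocytes had medians of 0.14 and 0.22, with Gfap called in CTRL (adjusted p = 0.0437), and sums of 91.2 to 107 and 83.0 to 132 CPM in CTRL. Neutrophil and monocyte markers had medians of 0.62 and 0.11, with S100a8 and S100a9 under 1 CPM, sums of at most 20.3 CPM in any library and 0 called. Medians were −0.29 and −0.85 for red cells, 0.45 and −0.01 for oligodendrocytes, and 0.44 and −0.11 for neurons, with 0 called. For smooth muscle they were 0.26 and −0.09, and for microglia and macrophages 0.25 and 0.04, again with 0 called. Endothelial markers had −0.05 and −0.02, with Pecam1 called higher in YT-iKO (edgeR adjusted p = 0.095). The part of these cells in the levels of Cox4i2, Ndufa4l2 and the other OXPHOS genes after MCAo was not tested.

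The share of all counts that fell on OXPHOS genes was much the same in every group. After sham, nuclear genes took 0.225% ± 0.010 (SD, n = 4) of counts in CTRL and 0.235% ± 0.028 in YT-iKO, and after MCAo 0.232% ± 0.010 and 0.237% ± 0.025. Mitochondrial genes took 0.475% ± 0.038 and 0.446% ± 0.071 after sham, and 0.492% ± 0.043 and 0.455% ± 0.086 after MCAo, again with CTRL first. All groups overlapped in both shares. The ratio of nuclear to mitochondrial counts was 0.395 to 0.742 over the libraries, and the 2 mitochondrial rRNAs had 6.01 to 10.2 times the counts of the mitochondrial OXPHOS genes. The spread of both shares was wider in YT-iKO than in CTRL, which was not tested. That of the ratio of nuclear to mitochondrial counts was narrower in YT-iKO after sham (0.510 to 0.578, against 0.411 to 0.538 in CTRL). After MCAo it was wider in YT-iKO (0.395 to 0.742, against 0.440 to 0.495 in CTRL).

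**Figure D3:**
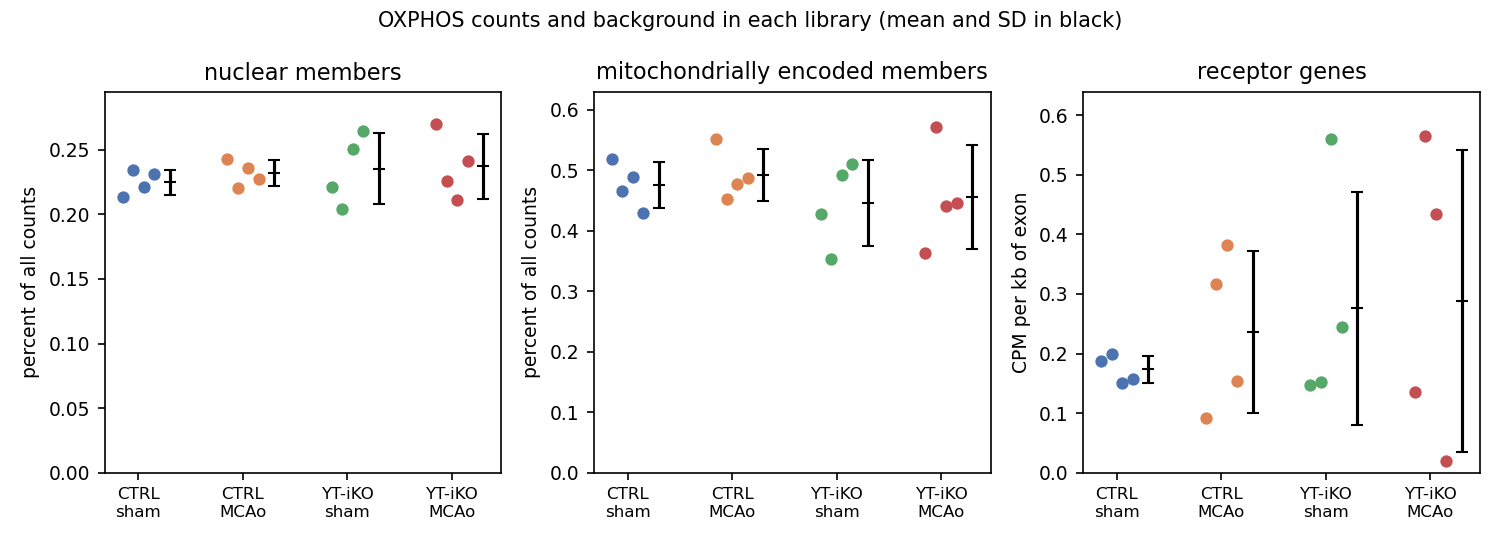
Percent of all counts on nuclear OXPHOS genes (left) and on mitochondrial OXPHOS genes (middle), and receptor-gene background in CPM per kb of exon (right), in each library of the 4 groups, with the mean and SD of 4 libraries in black. The nuclear share is 0.204% to 0.270% and the mitochondrial share 0.353% to 0.572%, with all groups overlapping.

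After sham, the comparison of YT-iKO with CTRL asks what loss of endothelial YAP and TAZ does to these genes without a stroke. None of the 95 OXPHOS genes tested was called at an adjusted p under 0.1, where 0.0965% of all genes were called (edgeR quasi-likelihood test), and none had an unadjusted p under 0.05. On the abundant-gene scale none was called either, against 0.37% of all genes, and 3 of 83 nuclear genes had an unadjusted p under 0.05, as had 1536 of all 31085 genes and 1153 of the 9132 of at least 10 CPM. The median log2 fold change was −0.09 for nuclear genes, with 24 of 83 above 0, and −0.31 for mitochondrial genes, with 0 of 12 above 0, beside 0.11 over all genes tested and −0.13 over genes of at least 10 CPM. On the abundant-gene scale these medians were 0.08, −0.15, 0.30 and 0.01, so that the nuclear median turned its sign with the scale and on neither scale lay below that of genes of at least 10 CPM. The 7 mitochondrial genes above 100 CPM had medians of −0.31 and −0.14 on the 2 scales, with 0 of 7 above 0 on either. The endothelial markers had a median of −0.20 on the abundant-gene scale, with Slco1a4, a transporter of the blood-brain barrier, called lower (edgeR adjusted p = 0.0138), whereas the markers of neurons, red cells, and neutrophils and monocytes had medians of 0.93, 0.96 and 0.96 with 0 called. Their part in the OXPHOS values was not tested. The nuclear genes with the largest increases among those of at least 10 CPM were Ndufb8 (0.19), an accessory subunit of complex I, and Atp5mpl (0.18), a small subunit of ATP synthase (−0.018 without YT-iKO sham replicate 4), and those with the largest decreases were Cox7a2l (−0.43) and Uqcrc2 (−0.42), a core protein of complex III. Of the 65 genes of at least 10 CPM, Ndufb8 and Uqcrc2 (3.08%) had libraries that did not overlap between genotypes on the abundant-gene scale, against 7.77% of all genes at that level (2.87% higher and 4.91% lower in YT-iKO). This count, too, changed with the scale. On the all-gene scale 0 were higher and Atp5o alone was lower, against 0.329% and 6.13% of all genes at that level. Relative to the sum of nuclear OXPHOS counts, 4 were higher (Ndufb8 and Ndufc2 among them) and 3 lower (Atp5b, Atp5o and Uqcrb), against 1.17% and 3.89%, and Uqcrc2 overlapped on both of these scales. Ndufb8 had 19.4 to 21.1 CPM in CTRL and 21.9 to 30.0 in YT-iKO, and Uqcrc2 had 32.2 to 37.1 in CTRL and 26.8 to 31.3 in YT-iKO. For neither gene did the difference pass the test (abundant-gene scale, log2 fold change 0.35, adjusted p = 0.622, and −0.27, adjusted p = 0.81).

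After MCAo, YT-iKO and CTRL differed as little in these genes. None of the 95 was called, against 0.0708% of all genes, or against 0.582% on the abundant-gene scale, and none had an unadjusted p under 0.05 (1 nuclear and 1 mitochondrial gene, Cox7a2l and mt-Cytb, on the abundant-gene scale, where 1479 of all genes had). The median log2 fold change was −0.03 for nuclear genes and −0.19 for mitochondrial genes, of which 1 of 12 was above 0, and −0.03 and −0.10 on the abundant-gene scale, beside 0.01 and 0.00 over genes of at least 10 CPM. For the 7 mitochondrial genes above 100 CPM the medians were −0.24 and −0.17, with 0 of 7 above 0 on either scale. Beside them, the endothelial markers had a median of −0.12 on the abundant-gene scale, again with Slco1a4 called lower (edgeR adjusted p = 0.00468). Medians of the other marker lists ran from −0.28 for astrocytes to 0.43 for red cells, with 0 called. Among them were 0.40 for microglia and macrophages, 0.30 for neurons and −0.23 for pericytes. The part of these differences in the OXPHOS values was not tested. Among nuclear genes of at least 10 CPM, the largest increases were those of Ndufc2 (0.20), an accessory subunit of complex I, and Uqcrq (0.18), a small subunit of complex III, both of which turned to −0.11 without YT-iKO MCAo replicate 1, and the largest decreases those of Cox7a2l (−0.32) and of Uqcrfs1 (−0.28), the Rieske iron-sulfur protein. Cox7a2l and Ndufb5 (3.08% of 65), both lower in YT-iKO, had no overlap of libraries on the abundant-gene scale, against 8.56% of all genes at that level (3.43% higher and 5.14% lower). With all-gene factors 0 were higher and 0 lower, against 0.339% and 0.657%, and relative to the sum of nuclear OXPHOS counts Atp5j was higher and Cox7a2l and Sdhc were lower, against 3.13% and 2.7%. mt-Cytb had 828 to 1085 CPM in CTRL and 677 to 855 in YT-iKO after MCAo, groups that overlap.

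MCAo against sham in CTRL bECs asks for the response to ischemia with YAP and TAZ intact. None of the 95 genes was called on the all-gene scale, against 0.216% of all genes, and Cox7a2l had an unadjusted p of 0.045. On the abundant-gene scale Cox7a2l was called and no other OXPHOS gene was, against 1.78% of all genes, and 10 of 83 nuclear genes had an unadjusted p under 0.05, as had 2340 of all 31085 genes and 1846 of the 9132 of at least 10 CPM. Medians were 0.03 for nuclear genes (54 of 83 above 0) and −0.00 for mitochondrial genes on the all-gene scale, and 0.10 (72 of 83 above 0) and 0.06 on the abundant-gene scale, beside 0.21 over all genes and −0.00 over genes of at least 10 CPM. On the all-gene scale the median of genes of at least 10 CPM was −0.09. The 7 mitochondrial genes above 100 CPM had medians of 0.01 and 0.07. By complex, the abundant-gene medians were 0.08 for I, 0.07 for II, 0.09 for III, 0.21 for IV (16 of 18 genes above 0) and 0.11 for V (16 of 17), and on the all-gene scale they were 0.01, 0.01, 0.02, 0.12 (14 of 18) and 0.03 (11 of 17). In YT-iKO, complex IV had 0.04 (10 of 18) on the abundant-gene scale and 0.15 (12 of 18) on the all-gene scale. The 18 genes include Cox6a2, Cox6b2 and Cox7b2, which lie under 1 CPM, and Cox4i2 and Ndufa4l2, known from pericytes. The part of background and of pericytes in these medians was not tested. Of the 65 genes of at least 10 CPM, 9 were higher after MCAo in every library on the abundant-gene scale (among them Atp5d, Cox4i1, Cox7a2l, Cox8a, Uqcrfs1 and Uqcrh) and 0 were lower, where 9.9% of all genes at that level were higher and 7.33% lower without overlap. The count depended on the scale. On the all-gene scale 0 were higher and 0 lower, against 1.77% and 3.44% of all genes at that level. Taken relative to the sum of nuclear OXPHOS counts, which needs no factor, 5 were higher (Cox4i1, Cox7a2l, Cox8a and Uqcrh among them) and 2 lower (Ndufb10 and Sdha), against 5.63% and 12.8%. Among these genes the largest decreases were those of Ndufb2 (−0.30) and Ndufs4 (−0.19), accessory subunits of complex I. limma-voom with sample quality weights, which counts noisier libraries less, gave another picture. It called 8 nuclear and 3 mitochondrial OXPHOS genes, all lower after MCAo (Ndufb2, Ndufb10, Sdha, Uqcrc2 and mt-Nd1 among them). Of all genes it called 4034 (13%) lower and 3504 higher, and the shares among genes at the level of these were not computed. mt-Nd3 was lower in every CTRL MCAo library (3.21 to 4.17 CPM against 4.21 to 5.48), but 97.6% of its windows occur elsewhere.

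In YT-iKO bECs the response to MCAo gave the same single gene. None of the 95 was called, against 0.318% of all genes, with Cox7a2l and Ndufa4l2 at an unadjusted p of 0.019 and 0.0289, and on the abundant-gene scale Cox7a2l was called, against 1.72% of all genes, and 5 of 83 nuclear genes had an unadjusted p under 0.05, as had 2075 of all genes and 1793 of those of at least 10 CPM. Medians were 0.13 for nuclear and 0.12 for mitochondrial genes, beside 0.05 over genes of at least 10 CPM, and 0.02, 0.05 and −0.01 on the abundant-gene scale. The 7 mitochondrial genes above 100 CPM had medians of 0.11 and 0.05. Among nuclear genes of at least 10 CPM, Ndufa8, an accessory subunit of complex I, had the largest increase after Cox7a2l (0.53), and Ndufb2 (−0.26) and Cox6c (−0.16), a small subunit of complex IV, had the largest decreases. That of Cox6c turned to 0.037 without YT-iKO sham replicate 4 and to 0.030 without YT-iKO MCAo replicate 3. Cox7a2l was also the only gene of the 65 without overlap of libraries on the abundant-gene scale (1.54%, against 8.46% of all genes at that level, 5.16% higher and 3.31% lower). With all-gene factors 0 were higher and 0 lower, against 1.31% and 0.449%, and relative to the sum of nuclear OXPHOS counts 2 were higher (Cox7a2l and Ndufa8) and 1 lower, against 4.87% and 1.07%. limma-voom with quality weights called 27 nuclear genes and mt-Nd3 in YT-iKO, all lower after MCAo, and none of the 27 was called by edgeR. Of all genes it called 2765 (8.89%) lower and 2861 higher, and the shares among genes at the level of the 27 were not computed. The genotypes were then compared in their responses, and 0 of the 95 genes were called as different, as were 0% of all genes on either scale. At an unadjusted p under 0.05 there were 0 OXPHOS genes on the all-gene scale and 2 nuclear genes on the abundant-gene scale, beside 116 and 197 of all genes. Among nuclear genes of at least 10 CPM, the extremes of that difference were Uqcrq (0.40) and Cox5a (0.37), with a larger increase in YT-iKO, and Ndufb5 (−0.26) and Ndufb8 (−0.24), and none of these passed the test.

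The intervals show what size of change these libraries could hold. For the 65 nuclear genes of at least 10 CPM, the median standard error of a log2 fold change between groups was 0.25 on the all-gene scale and 0.14 on the abundant-gene scale. On the abundant-gene scale the 95% interval lay within a log2 change of 1 in either direction for all 65 genes in all 5 comparisons, and on the all-gene scale it did so for 64, 65, 62, 60 and 55 genes.

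**Figure D4:**
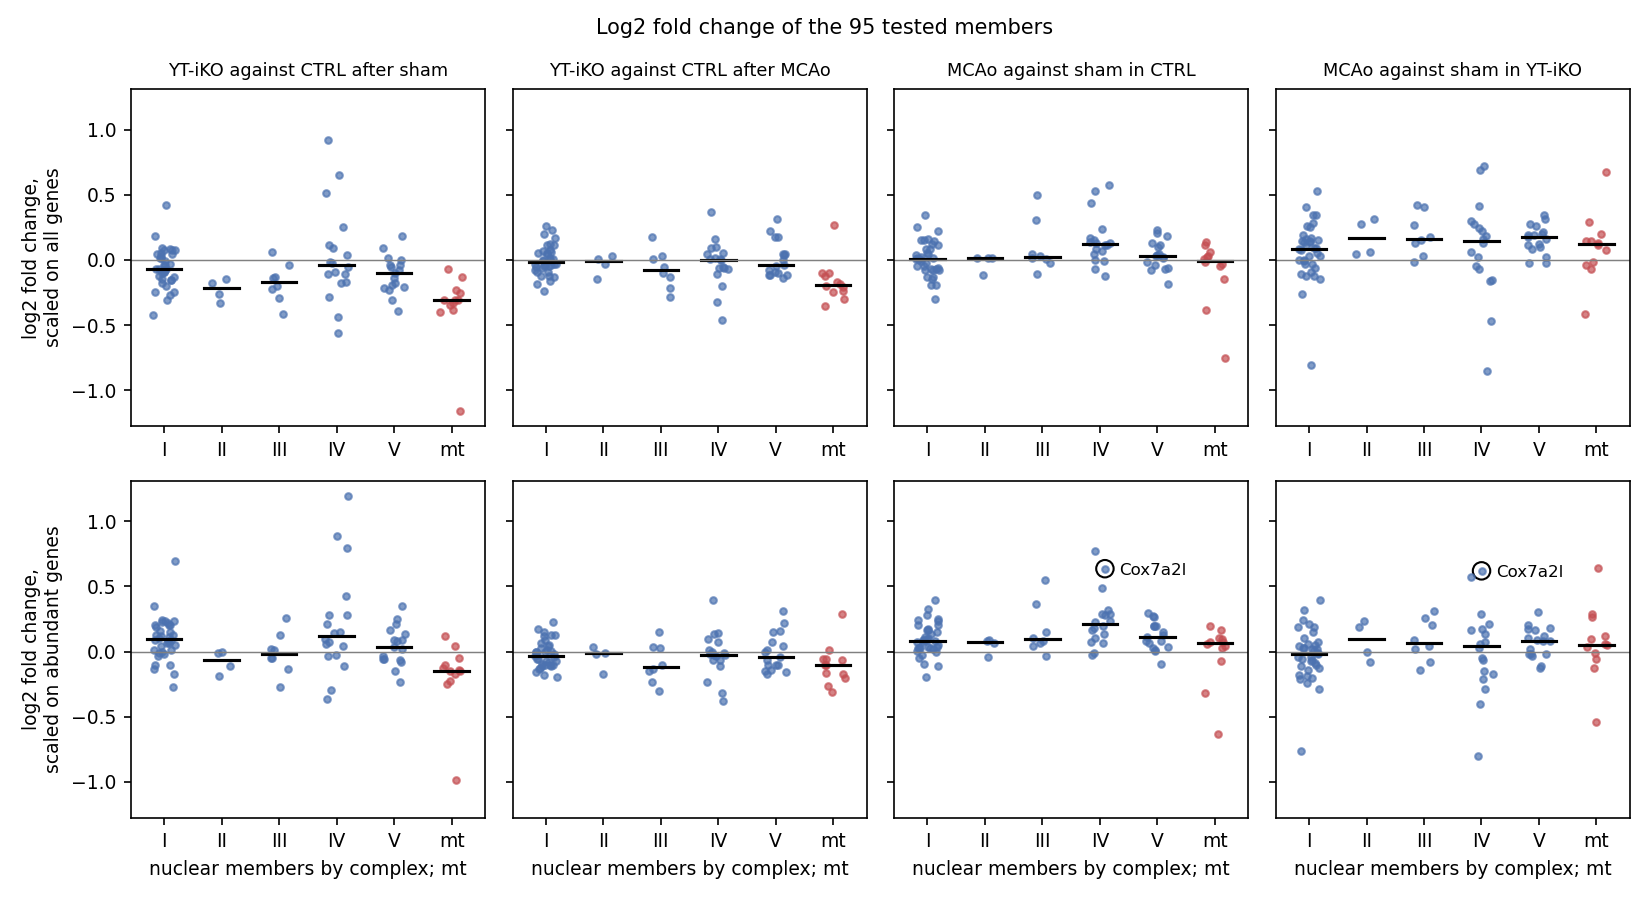
Log2 fold change of the 95 tested OXPHOS genes in 4 comparisons (columns), scaled on all genes (top) and on abundant genes (bottom), with nuclear genes in blue by complex, mitochondrial genes in red and medians as black bars. A ring marks the gene with an adjusted p under 0.1, which is Cox7a2l after MCAo in both genotypes on the abundant-gene scale, at 0.64 in CTRL and 0.62 in YT-iKO.

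Cox7a2l (ENSMUSG00000024248) is located on chromosome 17 (83501918 to 83517330, GRCm38), and 7.70% of its windows occur in the pseudogene Gm6969. Its protein, also called SCAF1, resembles the COX7A subunits. The 4 CTRL sham libraries had 30.1, 26.7, 32.6 and 31.1 CPM and the 4 CTRL MCAo libraries 52.5, 42.0, 42.1 and 50.2. The 4 YT-iKO sham libraries had 31.6, 16.4, 22.5 and 27.1 CPM and the 4 YT-iKO MCAo libraries 40.9, 34.9, 36.2 and 38.0. Within each genotype every MCAo library was above every sham library, and every YT-iKO MCAo library was below every CTRL MCAo library. By edgeR on the abundant-gene scale the log2 fold change after MCAo was 0.64 in CTRL (standard error 0.15, adjusted p = 0.043) and 0.62 in YT-iKO (0.15, 0.0517), and that between genotypes after MCAo was −0.32 (0.14, 0.999). An exact permutation test adds nothing where groups of 4 do not overlap, since its p is then fixed, and it gave p = 0.2 (two-sided) for genotype after sham, where they overlap.

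The call of Cox7a2l depended on the scale and on single libraries. On the all-gene scale the log2 fold changes after MCAo were close to those above, 0.58 in CTRL and 0.69 in YT-iKO, but the standard error was 0.27 and the adjusted p was 1, with exact permutation p = 0.0571 and 0.114. The share of Cox7a2l among nuclear OXPHOS counts, which needs no library factor, was higher in every MCAo library than in any sham library of the same genotype. On the abundant-gene scale the call in CTRL was lost without CTRL sham replicates 1 (adjusted p = 0.142) or 2 (0.177) or CTRL MCAo replicates 1 (0.175) or 4 (0.151). The call in YT-iKO was lost without replicate 2 (0.101) or 3 (0.110) of YT-iKO sham, and without replicate 1 (0.183) or 4 (0.102) of YT-iKO MCAo. A fit with the replicate number as a block on that scale was chosen after seeing the data. By edgeR it called Cox7a2l in CTRL (adjusted p = 0.00905) and in YT-iKO (0.00804), beside 614 and 576 of all genes. The response did not pass a test of difference between genotypes (−0.02, standard error 0.21). Its relative Cox7a2 had 10.6 to 15.6 CPM over the 16 libraries, with overlap of all groups. As a percentage of Cox7a2, Cox7a2l was 212 to 297 after sham and 326 to 392 after MCAo in CTRL bECs, and 154 to 260 and 269 to 331 in YT-iKO bECs.

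Uqcrh and Cox4i1 came next after MCAo in CTRL. Uqcrh, the hinge protein of complex III (chromosome 4, 116066965 to 116075071), had 17.8, 20.2, 16.7 and 20.9 CPM in CTRL sham and 31.3, 23.8, 24.8 and 31.0 in CTRL MCAo, without overlap. In YT-iKO sham its libraries had 19.8, 16.1, 21.7 and 19.0 CPM, and those of YT-iKO MCAo 31.4, 19.4, 19.6 and 23.9, which overlap. Its log2 fold change on the abundant-gene scale was 0.55 in CTRL (adjusted p = 0.105 by edgeR) and 0.31 in YT-iKO (0.798). Cox4i1, the general form of the COX4 subunit, had 28.1 to 32.6 CPM in CTRL sham and 33.3 to 47.6 in CTRL MCAo, again without overlap (log2 fold change 0.49, adjusted p = 0.253), and 21.3 to 35.6 and 25.6 to 41.9 in YT-iKO. On the all-gene scale the changes were 0.50 and 0.42 for Uqcrh and 0.43 and 0.41 for Cox4i1, in CTRL and YT-iKO. None of these differences passed the test on either scale. With the replicate number as a block and abundant-gene factors, chosen after seeing the data, edgeR called both genes in CTRL and neither in YT-iKO. It called 614 and 576 of all genes in these comparisons.

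**Figure D5:**
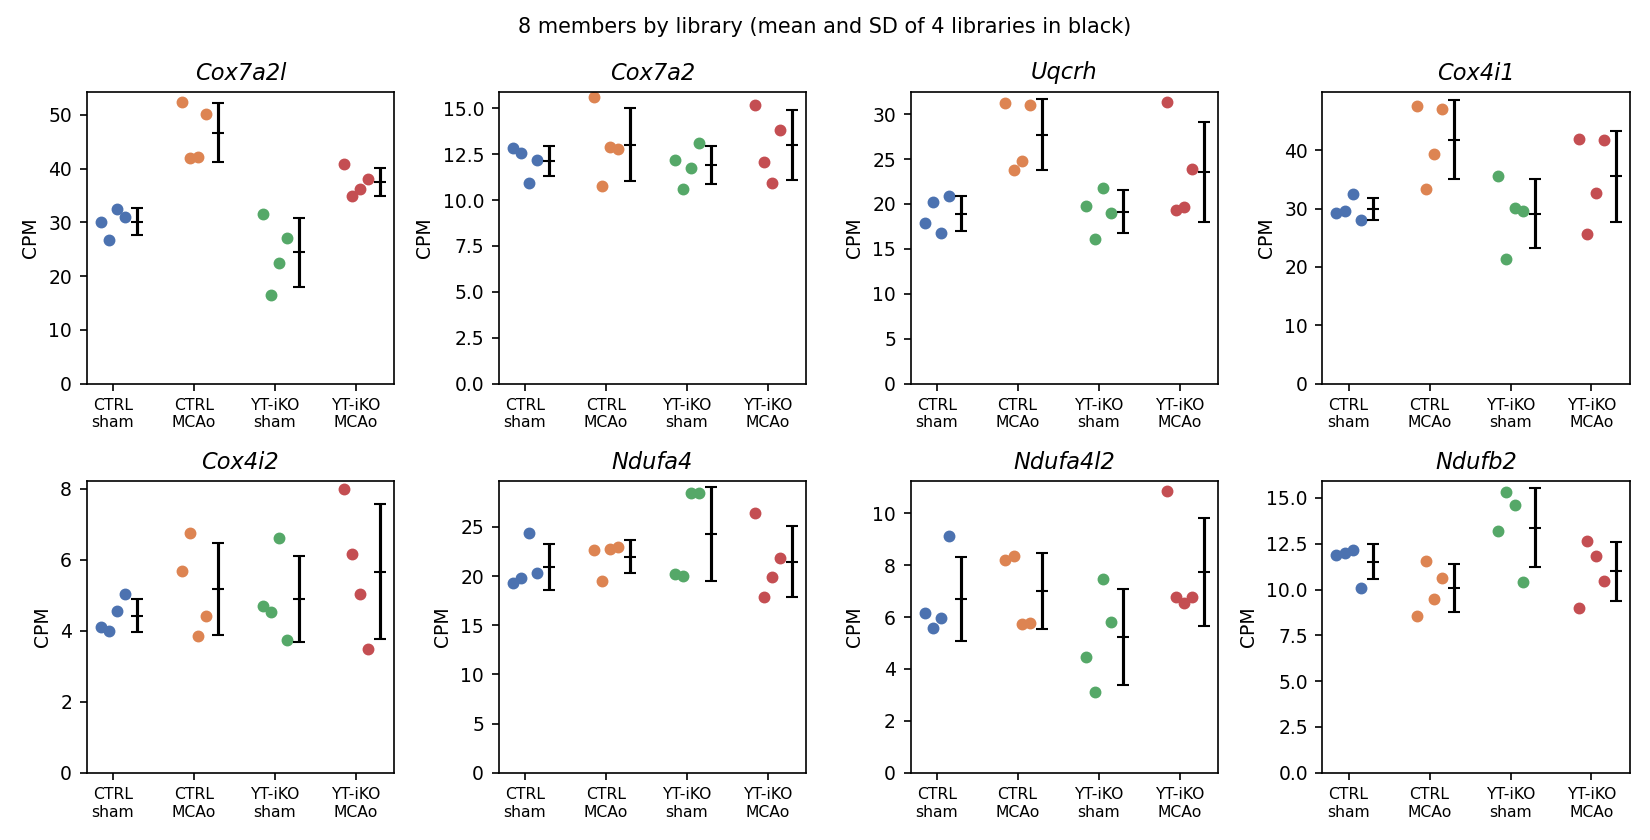
CPM on the abundant-gene scale of 8 OXPHOS genes in each of the 16 libraries, with the mean and SD of 4 libraries in black and every y axis starting at 0. Cox7a2l is higher in each MCAo library than in any sham library of its genotype, while Cox7a2, Ndufa4 and Ndufa4l2 overlap between all groups.

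Nuclear OXPHOS genes are known to share binding sites for the factors NRF1, GABP and YY1 near their start sites. Promoter sequences (from 250 bases before to 50 after the start) from RefSeq (GRCm38.p6) matched 68 of the 86 nuclear genes. Exact letters were searched on both strands: GCGCATG, the left side of the symmetric NRF1 site, for NRF1, CCGGAAG for GABP and AAGATGGCG for YY1. They occurred in 13 (19.1%), 17 (25%) and 7 (10.3%) of the 68 genes, against 4.41%, 9.93% and 1.64% of 27025 genes with a promoter in the same set. Promoters of Cox7a2l (chr17:83514284-83514583, minus strand), Uqcrh (chr4:116075021-116075320, minus strand) and Cox6a1 (chr5:115348909-115349208, minus strand) are shown, the first 2 for their values after MCAo and the third as an OXPHOS promoter with a match to both NRF1 and GABP. The capitals mark matches.
Cox7a2l: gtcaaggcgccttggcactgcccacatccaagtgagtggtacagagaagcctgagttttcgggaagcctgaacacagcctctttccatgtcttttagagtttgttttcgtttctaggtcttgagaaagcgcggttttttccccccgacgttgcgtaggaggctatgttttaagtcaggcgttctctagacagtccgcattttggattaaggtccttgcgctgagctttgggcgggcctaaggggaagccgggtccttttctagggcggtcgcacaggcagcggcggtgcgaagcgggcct
Uqcrh: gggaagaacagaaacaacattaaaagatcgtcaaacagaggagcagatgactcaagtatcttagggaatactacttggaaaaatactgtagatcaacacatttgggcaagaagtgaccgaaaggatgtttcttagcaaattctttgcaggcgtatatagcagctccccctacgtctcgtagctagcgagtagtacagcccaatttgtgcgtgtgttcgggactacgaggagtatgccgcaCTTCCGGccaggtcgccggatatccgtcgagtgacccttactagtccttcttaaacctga
Cox6a1: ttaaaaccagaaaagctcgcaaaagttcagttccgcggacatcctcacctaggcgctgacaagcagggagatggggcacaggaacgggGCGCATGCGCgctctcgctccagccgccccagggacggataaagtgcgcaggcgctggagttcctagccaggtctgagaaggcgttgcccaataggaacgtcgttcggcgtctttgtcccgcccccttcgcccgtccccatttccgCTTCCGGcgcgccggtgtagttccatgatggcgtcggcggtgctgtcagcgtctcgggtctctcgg
The promoter of Cox7a2l shown held none of the 3 strings. It lies inside the gene as annotated in GENCODE (83501918 to 83517330), and a start at the outer end of that gene was not searched. Uqcrh held a GABP string on the minus strand 10 to 4 bases before the start. Cox6a1 held NRF1 strings on both strands, which overlap and span 162 to 153 bases before the start, and a GABP string on the minus strand 16 to 10 bases before it. A match describes letters and not a bound site.

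Other genes of mitochondrial respiration were read in the same fit. Assembly factors of complex I (14 tested), of complexes III and IV (23) and of II and V (7), electron carriers and ubiquinone synthesis (11), maintenance and transcription of mitochondrial DNA (19), regulators of mitochondrial biogenesis (7), mitochondrial ribosomal proteins (77), the citric acid cycle (13), nucleotide and proton carriers (7), the 2 mitochondrial rRNAs and 2 OXPHOS pseudogenes had 0 genes called in any of the 5 comparisons on either scale. On the abundant-gene scale the sum of the 2 rRNAs was lower in every YT-iKO library than in any CTRL library of the same operation. It was 28633 to 40110 against 40592 to 43732 CPM after sham and 33170 to 41246 against 42135 to 55967 after MCAo. Of all genes of at least 10 CPM, 4.91% after sham and 5.14% after MCAo were likewise lower without overlap on that scale. As a share of all counts the rRNA sum overlapped after sham (2.96% to 4.10% against 4.03% to 4.49%) and after MCAo (3.44% to 4.15% against 4.10% to 5.35%). With 0% to 0.318% of all genes called on the all-gene scale and 0% to 1.78% on the abundant-gene scale, few calls would fall in lists of this size at those shares. On the abundant-gene scale, the medians of the mitochondrial ribosomal proteins were 0.08 and −0.03 for YT-iKO against CTRL after sham and after MCAo, and 0.02 and −0.05 for MCAo in CTRL and YT-iKO. Those of the citric acid cycle genes were −0.05, −0.01, 0.06 and 0.06.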

How the data were processed

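Raw counts per gene were deposited by the authors as whole numbers, 1 column per library, with 0 further columns of other samples. Per the labels and the study's methods, RNA of sorted bECs was amplified with a SMART-Seq kit, sequenced as paired ends of 101 bases and mapped with STAR 2.7.8a to GRCm38. The counting program, its use of strand, its treatment of reads that match several places and the gene filter are not given in the sources used here. Identifiers were matched to GENCODE M21 (GRCm38) for positions, lengths and windows of 101 bases.

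Counts were tested in R 4.3.3 with edgeR 4.0.16 (quasi-likelihood test, TMM, filterByExpr with a minimum count of 10 and total of 15, 4 groups in 1 model) on 31085 genes, and p was adjusted by Benjamini and Hochberg over all of them, with an adjusted p under 0.1 called, as in the study's use of DESeq2. Alternatives used DESeq2 1.42.0, limma 3.58.1 (voom with quality weights), abundant-gene TMM factors, other filters and thresholds, a replicate block, and each library left out. The permutation test of a gene, exact and two-sided, used log2(CPM + 1) and all 70 assignments of 4 and 4 libraries. The code was tested on simulated data. Same-numbered libraries of different groups had a median correlation of deviations of 0.259 (24 pairs, 17 above 0.1), against −0.128 for 72 other pairs. They were thus more alike than other pairs, and the main model holds no term for this. The labels do not say that the numbers are pairs.

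Genes named were all mitochondrial ones, those called, the 2 largest changes in each direction per comparison among nuclear genes of at least 10 CPM, isoform sets, and the highest and lowest gene per kb of each complex. Genes, lists and tests were chosen with earlier results of these data known. Other genes named were chosen after their values were seen.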

Additional observations from a re-analysis of the deposited data

Results flagged for a closer look

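In each group of 4 libraries, the CPM of the 50 named OXPHOS genes (abundant-gene scale) and the shares of counts on nuclear OXPHOS genes, mitochondrial OXPHOS genes and mitochondrial rRNAs were searched for a library far from the others by Dixon's test. Of 212 groups tested, 15 had such a library, where chance gives about 1 in 20, or 10.6. In CTRL sham, Ndufb2 had 10.1 CPM in replicate 4 (11.9 to 12.2 in the others) and Ndufs4 23.9 in replicate 1 (28.5 to 29.5). In CTRL MCAo replicate 2, Ndufa4 had 19.5 CPM (at least 22.7 in the others) and mt-Nd2 329.2 (398.9 to 404.5), and in CTRL MCAo replicate 1, Ndufc2 had 17.1 (15.6 to 15.7) and Sdha 145.9 (131.6 to 132.3). In YT-iKO sham replicate 2, Cox6a1 had 16.5 CPM (29.1 to 32.3). In YT-iKO sham replicate 3, which has a high receptor-gene background (0.560 CPM per kb), the low genes Cox6a2 and Ndufb11b had 2.00 (0.417 to 0.565) and 2.17 (0.435 to 0.573). In YT-iKO MCAo replicate 1, Ndufa4l2 had 10.8 CPM (6.55 to 6.76) and Ndufb10 40.3 (32.1 to 33.1). In YT-iKO MCAo replicate 2, the library with the highest background (0.564 CPM per kb), Uqcrc2 had 24.5 CPM (32.3 to 34.1), mt-Co2 6.25 (1.97 to 2.39) and mt-Nd4l 0.676 (0.366 to 0.399). In YT-iKO MCAo replicate 4, Atp5g1 had 6.67 CPM (9.72 to 10.4). The part of the background in these values was not tested.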

How the results depend on the processing

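Of the planned recalculations, 516 of the counts and medians by comparison kept their size and 10 moved, and of the named genes 481 kept their call, 5 gained one and 10 changed sign. Of those chosen after seeing the data, mostly with abundant-gene factors, 64 of the counts kept their size and 26 moved, and of the values of named genes 24 kept their call and 24, all of Cox7a2l after MCAo, gained one. With abundant-gene factors, nuclear genes called were 1 after MCAo in CTRL and 1 in YT-iKO (Cox7a2l in both), and with only the 2 groups compared in the model 1 in CTRL. With each library left out under those factors the counts were 0 to 2 in CTRL (the second gene was Uqcrh) and 0 to 1 in YT-iKO. limma-voom with quality weights called 8 nuclear and 3 mitochondrial genes after MCAo in CTRL and 27 and 1 in YT-iKO, all lower after MCAo, with medians of −0.35 for mitochondrial genes in CTRL and −0.36 for nuclear and −0.19 for mitochondrial genes in YT-iKO. That method called 7538 and 5626 of all genes in these comparisons, and the cause was not tested. Under it Ndufc2 (−0.20) and Uqcrq (−0.13) changed sign for genotype after MCAo, and Ndufa8 (−0.13) for MCAo in YT-iKO. With each library left out, the fold change ran from −0.018 (without YT-iKO sham replicate 4) to 0.37 for Atp5mpl, from −0.11 to 0.37 for Ndufc2 and from −0.11 to 0.36 for Uqcrq, the lowest of both without YT-iKO MCAo replicate 1, and were −0.013 and −0.049 without YT-iKO MCAo replicate 4. For Cox6c it ran from −0.53 to 0.037, and was 0.037 without replicate 4 of YT-iKO sham and 0.030 without replicate 3 of YT-iKO MCAo. With the replicate number as a block, 0 nuclear and 0 mitochondrial genes were called in any comparison on the all-gene scale, as without it. With the block and abundant-gene factors together, chosen after seeing the data, nuclear genes called were 3 after MCAo in CTRL (Cox7a2l, adjusted p = 0.00905, Cox4i1 and Uqcrh) and 1 in YT-iKO (Cox7a2l, 0.00804), and 0 in the other comparisons, beside 614 and 576 of all 31085 genes after MCAo. Same-numbered libraries were more alike than other pairs, but the labels do not say that the numbers pair the libraries. The 7 genes under 1 CPM rest on few counts, part of which the background could hold.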
